A study of Mus musculus with 96 samples.

Results

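The mitochondrial genome carried 37 of the 40202 genes in the count files: 13 protein genes, 2 rRNA genes and 22 tRNA genes. They were taken as every row placed on the mitochondrial sequence of the GRCm39 assembly, and their counts were compared between untreated C10 cells (control) and C10 cells given RO-3306 for 36 h, at a dose that the labels state as 10 nM and that no other source used here bears on. C10 is an established mouse lung line, called alveolar type II epithelial in the labels. RO-3306 is a small molecule that blocks CDK1, the cyclin-dependent kinase cells need to start mitosis. Each of the 96 libraries, 48 per treatment, came from 1 sorted cell, and the labels name no culture or passage. Each treatment was therefore 1 sample, no test was made, and all 95% intervals cover counting error only. A cell was kept if it had 50000 counts or more and 1000 genes or more, which left 29 control and 37 RO-3306 cells.

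Mitochondrial DNA is a small circular genome that codes for core subunits of the respiratory chain, the machinery that makes ATP in mitochondria, and for the rRNAs and tRNAs needed to translate them. Both strands are transcribed into long precursors, from which the tRNAs are cut out to release the mRNAs and rRNAs between them. ND6 was the only protein gene on the minus strand in the files, together with 8 of the 22 tRNA genes. Because the genes of a strand share precursors and the libraries are the same, the members are not independent of each other.

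The gene spans and the 150-base reads set which members could be counted at all. Reads overlapping more than 1 gene are left uncounted by the default of the counting tool, and the headers record no option that changes it. The read starts from which a whole 150-base read touches 1 gene alone were counted from the spans. This number was 0 for 21 of the 22 tRNA genes, which are 59 to 75 bases long and mostly abut their neighbours. The exception was TrnP, the tRNA gene for proline (15356 to 15422, minus strand), with 67 such starts. Of the protein genes, ATP8 (7766 to 7969) had the fewest, 13, and its last 43 bases are also in ATP6 (7927 to 8607). ND4L (9877 to 10173) had 142 and ND5 (11742 to 13565) the most, 1661. These sequences are shown because they mark where spans meet. ATP8 is printed whole with the bases it shares with ATP6 in capitals. For ND5 and ND6 the last 60 bases of each are printed on its own strand, and the capitals mark the 14 bases that lie opposite each other. Sequences were taken by gene name from GENCODE M21 transcripts (GRCm38), in which all 37 genes had the same length as in the files.
ATP8: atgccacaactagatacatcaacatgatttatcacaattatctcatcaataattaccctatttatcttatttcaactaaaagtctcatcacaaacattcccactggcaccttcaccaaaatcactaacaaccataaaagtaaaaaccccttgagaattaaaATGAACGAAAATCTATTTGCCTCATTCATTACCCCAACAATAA
ND5: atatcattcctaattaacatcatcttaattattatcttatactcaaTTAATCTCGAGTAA
ND6: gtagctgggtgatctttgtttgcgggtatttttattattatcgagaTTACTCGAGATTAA

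Of the 37 genes, 15 passed a mean of 5 counts per 1000000 counts (CPM), and these were the 13 protein genes and both rRNA genes. Of these, 13 had a count in all 66 kept cells. ATP8 was missing from 1 control cell, and ND4L was counted in 24 of 29 control cells and each of the 37 RO-3306 cells. Of the tRNA genes, 20 had no count in any kept cell. TrnP had 41 counts in 18 control cells and 43 counts in 21 RO-3306 cells, or 0.621 CPM (0.446 to 0.842) and 0.463 CPM (0.335 to 0.624). TrnN, the tRNA gene for asparagine (5089 to 5159, minus strand), had 0 counts in control and 3 counts in 3 RO-3306 cells, although no 150-base read touches it alone. Both are printed as the only tRNA genes with counts.
TrnP: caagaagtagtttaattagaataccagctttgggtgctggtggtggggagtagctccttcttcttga
TrnN: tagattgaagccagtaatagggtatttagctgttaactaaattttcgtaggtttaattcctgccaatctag

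Depth differed between the groups. Kept control cells had 59979 to 6457215 counts (median 1753427) and kept RO-3306 cells 295005 to 5321880 (median 2234309). Mitochondrial counts per cell ranged from 805 to 199280 in control and from 14706 to 437544 in RO-3306. In sum over the kept cells the alveolar type II markers were low, with 6 of 10 at 0 in control and 5 of 10 at 0 in RO-3306 (23.5 and 27.7 CPM in sum), and Sftpc, which defines that cell type, was at 0 in both. Of 5 alveolar type I markers, 2 (Ager and Aqp5) were at 0 in both groups, and the list had sums of 1162 CPM (control) and 1001 CPM (RO-3306). Of 6 epithelial markers, 3 were at 0 in control and 2 in RO-3306 (1.78 and 0.978 CPM in sum). Single cells held more: the epithelial list ran from 0 to 396 CPM per control cell and 0 to 48.2 CPM per RO-3306 cell. The type II list ran from 0 to 109 CPM and from 0 to 349 CPM. All 6 mesenchymal markers had counts, with sums of 5579 CPM (control) and 2523 CPM (RO-3306). The mesenchymal list ran from 1329 to 11354 CPM per control cell and 1263 to 13886 CPM per RO-3306 cell. In sum the macrophage list was at 31.3 CPM (control) and 336 CPM (RO-3306), of which Cd68 was at 0.0757 and 319.8 CPM, and it ranged from 0 to 253 CPM per control cell and from 0 to 860.1 CPM per RO-3306 cell. Marco of that list was at 0 in both groups, Ptprc in control, and Adgre1 and Csf1r in RO-3306. The part of these markers in the results below was not tested.

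Mitochondrial counts made up a larger share of the RO-3306 libraries. Per cell the share was between 1.34% and 6.03% in control, with a median of 3.40%, and between 2.06% and 56% in RO-3306, with a median of 4.42%. The groups overlapped. Of the 37 RO-3306 cells, 31 lay above the control median and 5 above the highest control cell, whereas 5 of 29 control cells lay above the RO-3306 median. In the summed counts the share was 3.31% (3.31% to 3.32%) and 4.93% (4.93% to 4.94%), a log2 ratio of 0.58. Each cell's title holds a letter, A, B, C or D, whose meaning is not given, and the log2 ratio was 0.33, 0.88, 0.49 and 0.77 in these 4 lettered sets. The sets are not replicates and were used only to see whether a sign was the same in each.

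**Figure D1:**
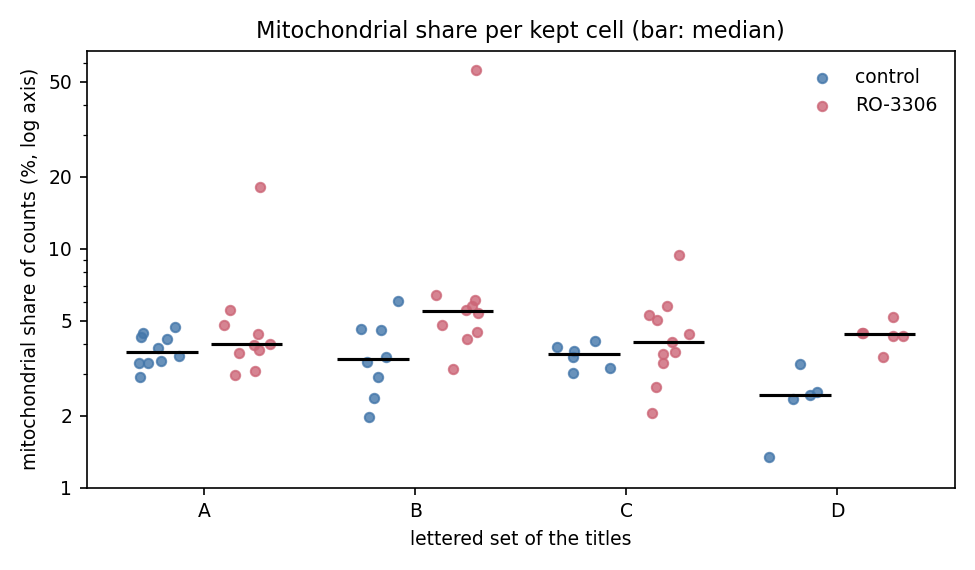
Mitochondrial share of counts (percent, log axis) in each kept cell, by lettered set and treatment; black bars are medians. The RO-3306 median is the higher one in all 4 sets, and 3 RO-3306 cells, in sets B, A and C, stand at 56%, 18.1% and 9.42%.

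The 3 RO-3306 cells with the highest shares were B3 (56%, 295005 counts, 4075 genes), A11 (18.1%, 3178 genes) and C4 (9.42%, 6494 genes). Leaving them out lowered the summed RO-3306 share to 4.45% and the log2 ratio to 0.43, and the median to 4.37%. Spearman's correlation of share and total counts was -0.27 across the 29 control cells and 0.03 across the 37 RO-3306 cells, given as a description of cells that share their preparation. Thinned to 639000 reads, 25 control and 34 RO-3306 cells had median shares of 3.41% and 4.39%, and medians of 4587 and 5966.5 genes with a count. RO-3306 cells B3 and A11 had fewer reads than this and are not among the thinned cells. Thinning is thus not separate from leaving out the cells of the highest share. A share cannot tell more mitochondrial RNA from less nuclear-coded RNA per cell, and no spike-in is recorded in the labels.

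Most members with counts were higher in RO-3306. Scaled to total counts, 14 of the 15 genes were higher in RO-3306, and ND6 was lower. A gene was called when its summed level differed by at least 1.5-fold with the same sign in all 4 lettered sets. By this rule 9 of the 15 were called higher (both rRNA genes, ND1, ND3, ND4L, COX2, COX3, ATP6 and ATP8) and 0 lower. Among all 9374 genes that reached a mean of 5 CPM, 19.1% were called, 10.6% higher and 8.51% lower. The count of 9 rested in part on a few cells. Without the 3 RO-3306 cells of the highest share only ND1, ATP6 and ATP8 were called. Among all 9374 genes 19.2% were called without those cells, and the 3 of 15 members lie close to that share. The same 3 genes were called in thinned cells, which do not include B3 and A11. Without cell C4 alone 5 were called, and without set B 4 were. For the 13 protein genes the log2 ratio had a median of 0.63 and a range of -0.25 to 1.39, and the median was 0.34, 0.84, 0.56 and 1.04 in sets A to D. Over all 9374 genes the median was -0.22. TMM factors add 0.16 and DESeq2 size factors 0.12 to every log2 ratio on this scale, and neither changed the sign of any of the 15. With either, ND2, CYTB and COX1 also passed the call, which made 12 of 15. The share called among all genes was not recomputed with these factors. They move the median over all genes to -0.06 (TMM) and -0.10 (DESeq2).

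To separate the composition of mitochondrial RNA from its amount, each gene was also scaled to the mitochondrial counts. On this scale the median log2 ratio of the 13 protein genes was 0.06, and 6 of the 13 kept 1 sign in all 4 sets. ND1, COX3, ATP6 and ATP8 were higher, and ND4 and ND6 lower. At 1.5-fold, 1 gene was called higher (ATP8) and 1 lower (ND6), and at 2-fold none was. Scaled to total counts, 19.1% of all 9374 genes were called. ATP8 and ND6 are therefore single values here and not a result about the group.

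**Figure D2:**
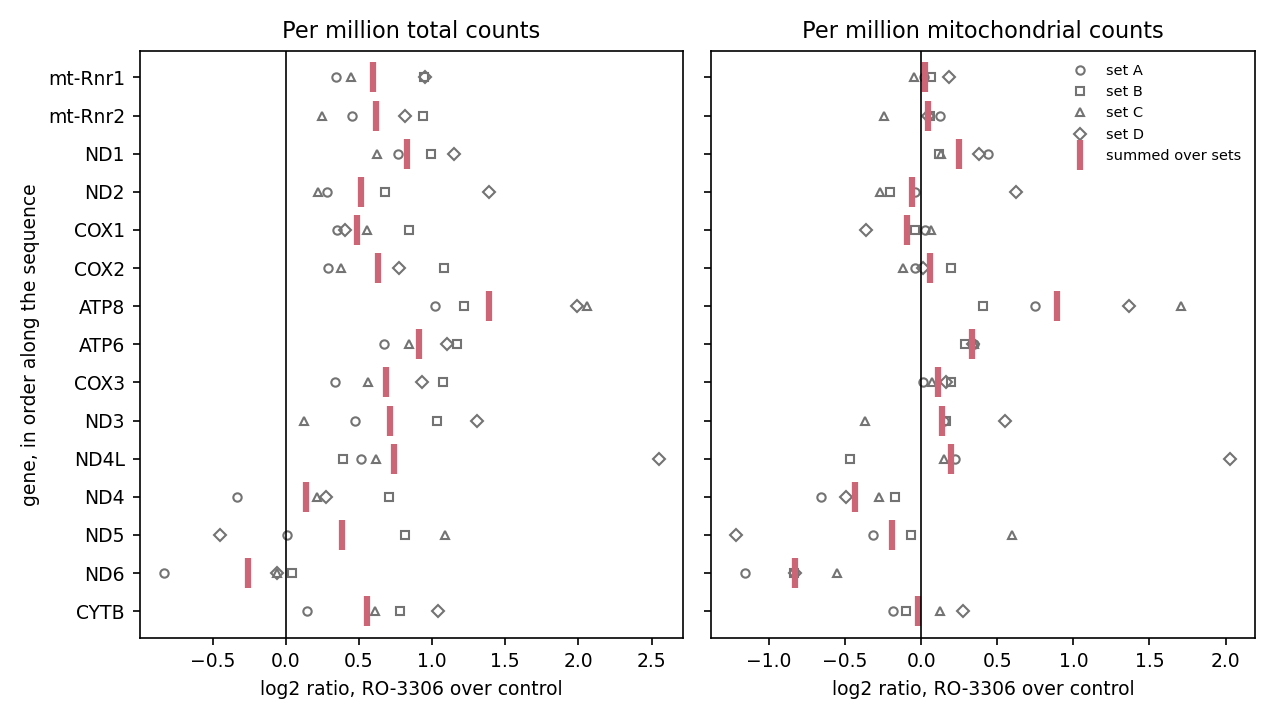
Log2 ratio of RO-3306 over control for the 15 genes with counts, scaled to total counts (left) and to mitochondrial counts (right); bars are summed counts and symbols the 4 lettered sets. On the left 14 of 15 bars lie above 0 and ND6 lies at -0.25, and on the right ATP8 is highest at 0.89 and ND6 lowest at -0.83.

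ND6 (13552 to 14070, minus strand) codes for a membrane subunit of complex I, the NADH dehydrogenase that feeds electrons into the chain. It took 1.09% to 7.63% of the mitochondrial counts of a control cell, with a median of 3.48%, and 0.382% to 4.40% in RO-3306, with a median of 2.02%. Of the RO-3306 cells, 35 of 37 lay below the control median, and 27 of 29 control cells lay above the RO-3306 median, although the ranges overlapped. In the summed counts the ND6 share was 3.65% and 2.05%, a log2 ratio of -0.83 (-0.84 to -0.82), and the sets gave -1.16, -0.83, -0.55 and -0.83. Scaled to total counts ND6 was at 1209 CPM in control and at 1014 CPM with RO-3306, a log2 ratio of -0.25. That difference was uneven, at -0.83 in set A and between -0.06 and 0.05 in the others, and without RO-3306 cell C4 it was -0.40. Without the 3 cells of the highest share it was -0.47.

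The ratio of ND6 to its neighbours was also taken in each cell. ND6 counts per ND5 count had a median of 1.19 over control cells (0.279 to 12.4) and 0.641 over RO-3306 cells (0.315 to 2.27). Of the RO-3306 cells, 34 of 37 lay below the control median. In the summed counts the ratio was 1.06 and 0.681, but in set D it was lower in control, at 0.509 against 0.667. This rested on control cell D7, in which ND5 took 13.1% of mitochondrial counts. Without it the set D ratios were 0.686 in control and 0.667 in RO-3306, and the log2 ratio of ND5 within mitochondrial counts in that set went from -1.22 to -0.79. Against CYTB, the next protein gene on its other side, the ND6 ratio was 0.207 in control and 0.118 in RO-3306, and it was lower in RO-3306 in all 4 sets. The deposited counts carry no strand, so reads of ND6 and of RNA from the strand opposite to it cannot be told apart. The shares of ND6 and ND5 varied together across cells, with Spearman's correlations of 0.42 across the 29 control cells and 0.55 across the 37 given RO-3306; both shares are of the same libraries. Written on its own strand, ND6 had 28.1% G and 5.97% C, whereas G made up 5.88% to 16.2% in the other 14 genes. G and C together made up 34.1% of ND6, within the 31.9% (ATP8) to 41.1% (ND4L) of the other genes.

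ATP6 and ATP8 code for the 2 mitochondrial subunits of ATP synthase that lie in its membrane part, and they are carried on 1 mRNA. ATP6 took 2.78% to 5.14% of mitochondrial counts among control cells (median 4.18%) and 3.35% to 6.78% with RO-3306 (median 5.33%). This was the least variable member, with a coefficient of variation over cells of 14% in control and 14.8% in RO-3306. No control cell reached the RO-3306 median, and 23 of 37 RO-3306 cells lay above the highest control cell. The log2 ratio within mitochondrial counts was 0.33 (0.32 to 0.35) and nearly the same in the sets, at 0.35, 0.29, 0.35 and 0.34. Scaled to total counts ATP6 went from 1367 to 2568 CPM, a log2 ratio of 0.91.

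ATP8 was counted from few read starts and its level is not comparable with that of ATP6. It had 731 counts in control, or 11.1 CPM (10.3 to 11.9), and 2845 in RO-3306, or 30.6 CPM (29.5 to 31.8). Per cell its share of mitochondrial counts was 0 to 0.0786% in control (median 0.0240%) and 0.0209% to 0.134% in RO-3306 (median 0.0544%). All but 1 of the 37 RO-3306 cells lay above the control median. Its log2 ratio within mitochondrial counts was 0.89 (0.78 to 1.01), with 0.75, 0.40, 1.71 and 1.37 in the sets. ATP8 counts per ATP6 count were 0.0081 in control and 0.0119 in RO-3306, and the ratio was higher in RO-3306 in all 4 sets. Whether reads were trimmed is not given in the sources used here, and the part of read length in this difference was not tested.

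**Figure D3:**
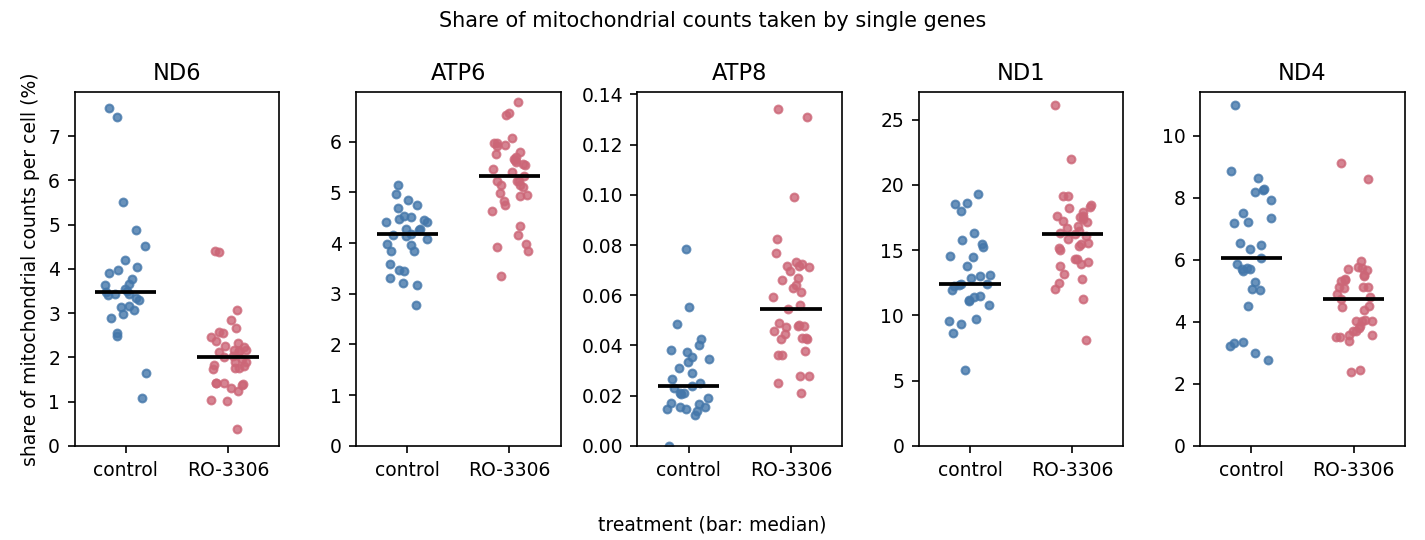
Share of a cell's mitochondrial counts (percent) taken by ND6, ATP6, ATP8, ND1 and ND4 in each kept cell; black bars are medians. The ND6 median is 3.48% in control and 2.02% in RO-3306, and the ATP6 medians are 4.18% and 5.33%, with every control cell under the RO-3306 median for ATP6.

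The other complex I genes split. ND1 (2751 to 3707) codes for a core subunit of the membrane arm and lies directly downstream of the rRNA genes and a tRNA gene. Its share ran from 5.83% to 19.3% among control cells, with a median of 12.4%, and from 8.11% to 26.1% with RO-3306, with a median of 16.2%. Of the RO-3306 cells, 34 of 37 lay above the control median. Its log2 ratio within mitochondrial counts was 0.25, with 0.44, 0.12, 0.13 and 0.38 in the sets, and scaled to total counts it went from 4509.95 to 7999 CPM.

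ND4 (10167 to 11544), also a membrane arm subunit, took 2.77% to 11% of mitochondrial counts among control cells (median 6.05%) and 2.40% to 9.11% with RO-3306 (median 4.75%). Here 35 of 37 RO-3306 cells lay below the control median. The log2 ratio within mitochondrial counts was -0.44, with -0.66, -0.17, -0.28 and -0.49 in the sets. Scaled to total counts ND4 was at 2093 and 2304 CPM, a log2 ratio of 0.14 with a negative sign in set A, so its direction on that scale is not settled. The ratio of ND4 to ND1 counts was 0.464 in control and 0.288 in RO-3306, and was lower in RO-3306 in each set.

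The remaining complex I genes had no settled direction within mitochondrial counts. ND2 went from 1199.8 to 1717 CPM and ND3 from 128 to 211 CPM. ND5, the largest subunit of the 7, went from 1140.8 to 1488 CPM, with a coefficient of variation over cells of 64.2% in control. ND4L was at 15.6 and 26.6 CPM. Its log2 ratio within mitochondrial counts was 0.20 in sum but ran from -0.47 in set B to 2.03 in set D. All 7 genes of complex I together took 31.1% of mitochondrial counts in control and 29.9% in RO-3306.

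CYTB (14145 to 15288) codes for cytochrome b, the only complex III subunit of the mitochondrial genome. It went from 5849.6 to 8612 CPM. Its share of mitochondrial counts was 11.1% to 25.7% among control cells (median 17%) and 4.25% to 22.7% with RO-3306 (median 16.9%), and its log2 ratio on that scale, -0.02, changed sign between sets. COX1, COX2 and COX3 code for the core of complex IV, cytochrome c oxidase, which passes electrons to oxygen. COX1 went from 5721 to 8007 CPM, COX2 from 1654 to 2563 CPM and COX3 from 2759 to 4438 CPM. Within mitochondrial counts COX3 had a log2 ratio of 0.11 with the same sign in each set (0.01 to 0.19), and 28 of 37 RO-3306 cells lay above the control median. COX1 (-0.09) and COX2 (0.06) changed sign between sets. As a whole complex IV took 30.6% of mitochondrial counts in control and 30.4% in RO-3306.

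The rRNA genes, mt-Rnr1 (70 to 1024) and mt-Rnr2 (1094 to 2675), code for the RNAs of the small and large subunits of the mitochondrial ribosome. mt-Rnr1 went from 580.3 to 878 CPM and mt-Rnr2 from 4876 to 7489 CPM, and both passed the call on that scale, narrowly. Leaving out single cells of either group ended each call. The log2 ratio was 0.60 for mt-Rnr1 and 0.48 without RO-3306 cell B3, and 0.62 for mt-Rnr2 and 0.47 without RO-3306 cell C4. Both calls also ended without control cell B2, B4 or B5. In thinned cells the ratios were 0.29 and 0.27. The rRNA share of mitochondrial counts had no settled direction. It was 16.5% in control and 17% in RO-3306 in the summed counts, but the median cell had 17.2% in control and 15.3% in RO-3306. In set C it was lower in RO-3306 (20.4% and 17.4%), and without the 3 cells of the highest mitochondrial share it was 15.7% in RO-3306. Of those cells, A11 had 31.7% and C4 24.2% rRNA. The library kit, SMART-seq v4, starts cDNA from poly(A) tails, so these counts are not the full rRNA content of a cell. mt-Rnr2 had 8.40 counts per mt-Rnr1 count in control and 8.53 in RO-3306.

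Levels were compared between genes per kilobase of gene span. In control, CYTB (5113 CPM per kb) and ND1 (4713 CPM per kb) were highest, followed by COX1 (3703), COX3 (3519.7), mt-Rnr2 (3082), COX2 (2418), ND6 (2329.9) and ATP6 (2007). ND4 (1519), ND2 (1156), ND5 (625), mt-Rnr1 (608) and ND3 (369) were lower, and ATP8 (54.3) and ND4L (52.4) lowest. In RO-3306 the order at the top was ND1 (8358), CYTB (7528), COX3 (5660.2) and COX1 (5183). ND6 (1953) stood below ATP6 (3771), above which it had stood in control. Per read start counted rather than per base, ATP8 was nearer to ATP6, at 85.2 and 280.1 CPM per 100 starts in control and 236 and 526 in RO-3306. ND4L remained the lowest, at 11 and 18.7. Other places in the order also depended on the scale. Per 100 starts in control, COX3 (435) stood above COX1 (410), and ATP8 stood above mt-Rnr1 (71.9), ND5 (68.7) and ND3 (64.2). Neighbours such as COX1 and COX3 in control lie close beside the spread between cells, since the coefficient of variation of their shares over control cells was 24.7% and 18.7%. The same holds for ND5 and mt-Rnr1, with 64.2% and 53.1%.

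**Figure D4:**
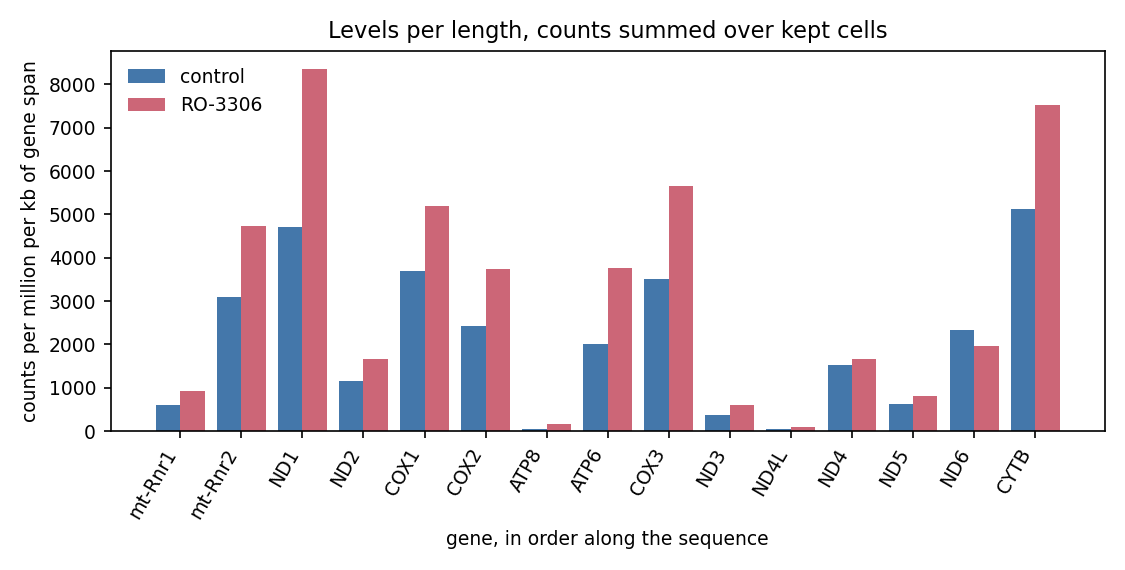
Level of each gene as CPM per kb of gene span, from summed counts of each group; genes are in order along the sequence and bars start at 0. CYTB is highest in control at 5113 and ND1 in RO-3306 at 8358, and ND6 is the only gene whose RO-3306 bar is lower.

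Shorter genes tended to have higher ratios. Over all 15 protein and rRNA genes Spearman's correlation of span length and log2 ratio within mitochondrial counts was -0.60. Over the 14 genes other than ND6 it was -0.82, with the shortest gene, ATP8, at 0.89 and the longest, ND5, at -0.19. Without ATP8 and ND4L as well it was -0.76 over 12 genes. These genes come from the same libraries and their shares sum to a whole, so this is a description only. ND6, with 519 bases, was lower than ND3 (348 bases, 0.14) and ATP6 (681 bases, 0.33), which lie on either side of it in length. The part of length in the ratios was not tested.

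Nuclear-coded subunits of the same complexes had lower median ratios than the mitochondrial ones. Of 72 such genes that reached a mean of 5 CPM, 49 were higher and 23 lower in RO-3306, with a median of 0.22 for the log2 ratio; 5 were called higher and 2 lower. These 7 are 9.72% of the 72, below the 19.1% called among all genes, so the called subunits named here are single values and not a result about the group. For complex I the median was 0.22 over 37 nuclear-coded genes and 0.52 over the 7 mitochondrial ones. For complex IV it was 0.35 over 11 genes, against 0.63 over 3. For complex III it was -0.19 over 9 genes, while CYTB was at 0.56. The widest gap was in ATP synthase, at 0.06 over 15 nuclear-coded genes, with ATP6 at 0.91 and ATP8 at 1.39. Of those 15 genes, 9 were higher and 6 lower. Atp5a1 (557 to 314 CPM, called lower), Atp5b (1922 to 1359 CPM) and Atp5c1 (856 to 645 CPM) were lower in all 4 sets. Atp5o (514 to 663 CPM), Atp5e (115 to 152 CPM) and Atp5h (401 to 541 CPM) were higher in all 4 sets. In complex I, Ndufa6 (289 to 627 CPM), Ndufb9 (455 to 805 CPM) and Ndufa7 (233 to 396 CPM) were called higher, as was Ndufa11 (245 to 408 CPM). In complex III, Uqcrq (502 to 781 CPM) was called higher and Uqcrc1 (371 to 234 CPM) lower. The gap between the genomes was smaller without the 3 RO-3306 cells of the highest mitochondrial share. The median was then 0.23 over the nuclear-coded genes and 0.48 over the mitochondrial protein genes. With all kept cells these were 0.22 and 0.63. For complex I the nuclear-coded median was then 0.27, and ND2, the median gene of the 7 mitochondrial ones, was at 0.38.

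**Figure D5:**
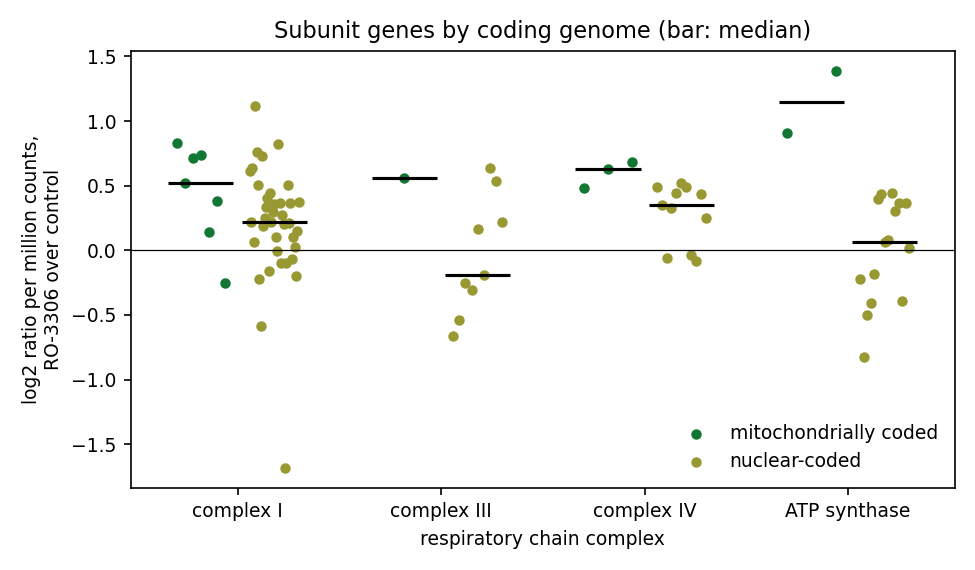
Log2 ratio, scaled to total counts, for subunit genes of 4 respiratory complexes, split by the genome that codes for them; each point is a gene and black bars are medians. Mitochondrial medians lie above nuclear ones in each complex, with the widest gap in ATP synthase (1.15 and 0.06).

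Genes that maintain and express mitochondrial DNA showed no common direction. For mitochondrial transcription the log2 ratios had a median of 0.77 over 9 genes, with 5 higher and 4 lower, 0 called, and a negative median in set B (-0.42). The replication list had 5 higher and 5 lower of 10, with 1 called higher, the topoisomerase gene Top1mt (7.72 to 30.1 CPM). Of 26 genes of RNA processing and stability, 12 were higher and 14 lower, with 2 called higher and 1 lower. Mrm1, an rRNA methyltransferase, was called higher (2.82 to 20.3 CPM). Slirp, which with Lrpprc stabilises mitochondrial mRNAs, was called higher (47.3 to 95.8 CPM), and Grsf1, an RNA-binding protein of mitochondrial RNA granules, lower (165 to 83.0 CPM). Of 11 translation factors, 4 were higher and 7 lower, and Tsfm, an elongation factor, was called higher (49.4 to 90.0 CPM). The share called was 0% for transcription, 10% for replication, 11.5% for RNA processing and stability and 9.09% for translation factors. Among all genes it was 19.1%, so the called genes named from these lists are single values and not a result about the lists. Ndufa11, Top1mt and Mrm1 were named after their values were seen. All 7 measured biogenesis regulators, nuclear genes that act upstream of mitochondrial mass, had a log2 ratio below 0 (median -0.67, from -1.85 to -0.01), and 0 were called. Their median was -0.79, -0.60, 0 and -1.88 in sets A to D, and the median over all genes was -0.22.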

How the data were processed

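Libraries of 96 single C10 cells, 48 per treatment, were analysed from expected counts per gene that the authors deposited. Per the file headers these counts came from featureCounts 2.0.3 with GRCm39 RefSeq genes, over whole gene spans, with a read placed at several sites split into equal fractions; STAR and FastQC are named in the submitters' processing notes, with no version. No strand option is recorded. The counts were fractional in 21.2% to 87.9% of kept cells across the 15 genes that had enough counts (mean 5 CPM), so part of their reads also matched other sites. Reads have no molecular identifiers.

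Cells with at least 50000 counts and 1000 genes were kept (29 and 37), and no 2 of them held identical values. Counts were summed per group and scaled to 1000000 total (CPM) or mitochondrial counts, and log2 ratios used a pseudocount of 1 on that scale. Intervals on the log2 scale are exact, conditional on the sum of both counts, and use no pseudocount. Poisson and Clopper-Pearson intervals are at the 95% level, on rounded counts. A call needs 1.5-fold and the same sign in 4 lettered sets. All 13 protein and both rRNA genes are named. Of the tRNA genes the 5 with the most counts were to be named, and only 2 had any. Of the nuclear lists, the 3 highest and 3 lowest ratios with 1 sign in all sets and at least 20 CPM were eligible. The members and lists were chosen with earlier results of these data known. Alternatives were other cell filters, thinning, weighting, scaling (edgeR 4.0.16, DESeq2 1.42.0, in R 4.3.3), pseudocounts and omitted sets. Python 3.11.15 with numpy 2.4.6, pandas 2.3.3, scipy 1.17.1 and matplotlib 3.10.9 was used.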

Additional observations from a re-analysis of the deposited data

Results flagged for a closer look

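Some libraries outside the kept cells held mostly mitochondrial counts, above the highest control library of any depth (20.3%, from 22.1 counts). RO-3306 library C12, with 48054 counts and 884 genes, had a mitochondrial share of 84.5% (84.2% to 84.9%). RO-3306 library D5, with 773537 counts and 943 genes, had 87.3% (87.2% to 87.3%). Within their mitochondrial counts, ND6 took 1.21% and 1.90%, ATP6 3.19% and 5.44%, and rRNA 28% and 19.8%. Both ND6 shares lie within the ranges of the kept control and RO-3306 cells.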

How the results depend on the processing

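The log2 ratio of the mitochondrial share (0.58) was 0.57 with a minimum of 100000 counts and 2000 genes, 0.78 with 10000 counts and 500 genes, 0.53 with cells of at most 20% mitochondrial counts, 0.85 with cells weighted equally, 0.36 with thinned cells, 0.57 without rRNA genes and 0.43 without the 3 RO-3306 cells of the highest share, chosen after seeing the data. In that order the difference of the median cells (1.02 percentage points) was 0.96, 1.15, 1.01, 2.79 (as means), 0.97, 0.86 and 0.97. The median log2 ratio of the protein genes (0.63) was 0.63, 0.82, 0.58, 0.95, 0.43 and, without the 3 cells, 0.48; with TMM factors it was 0.79, with DESeq2 factors 0.75, scaled to nuclear-coded counts 0.66, and with pseudocounts of 0.1 and 10 CPM 0.63 and 0.56. The rRNA difference (0.48 points) was 0.48, 0.98, 0.39, -1.02, -1.02 and, without the 3 cells, -0.80, so its sign turned with equal weights, with thinning and without those cells, and also without set A; the cause was not tested. Omitting single lettered sets gave 0.44 to 0.70 for the share, 0.86 to 1.15 points for the median cells, 0.49 to 0.71 for the protein genes, and -0.047 to 0.839 points for rRNA. The 9 genes called on total counts were 3 in thinned cells, 3 without the 3 cells, 1 at 2-fold, 4 to 11 with single sets omitted and 6 to 12 under the other settings. Leaving out each kept cell gave 5 (without RO-3306 cell C4) to 9, and the alternatives for this count were added after seeing the data. The 2 genes called within mitochondrial counts became 0 at 2-fold and 3 without set B, and were 2 otherwise. ND6 stayed between -0.93 and -0.74 and ATP6 between 0.30 and 0.40 on that scale. Leaving out each kept cell in turn, also chosen after seeing the data, left ND5 at -0.10 without control cell D7 (-0.19 with it), ND6 between -0.91 and -0.79 and ATP8 between 0.84 and 1.02. Scaled to total counts ND6 was -0.40 without cell C4. The sign of single genes differed from the reported one in 19 of 405 recomputed values. No paired analysis was possible because the numbers in the titles are not stated to pair cells and no test was made. Few counts limit ATP8, ND4L and the tRNA genes.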

Other observations

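Libraries left out for few counts or genes differed in mitochondrial share between the groups. Of the 15 left-out control libraries with over 1000 counts, 14 had less than 1% mitochondrial counts, with a median of 0.152%, whereas 1 of the 11 left-out RO-3306 libraries did, with a median of 4.52%. Control library C11 held 2198 mitochondrial counts, of which 93.5% were COX1. RO-3306 library A4 held 1978, of which 42.3% were COX3 and 30.5% CYTB. In kept cells COX1 took at most 30.7% in control.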
